A study of Mus musculus with 6 samples.

Results

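The skeletal and developmental myosin heavy chain genes *Myh3*, *Myh2*, *Myh1*, *Myh4*, *Myh8* and *Myh13* stand in a row on mouse chromosome 11, and their counts were followed in cardiomyocyte (CM) nuclei that overexpressed YAP variants. The members were the 6 rows, of 54532 Ensembl genes in the deposited count table, whose identifiers map to those symbols in the GENCODE M21 annotation of GRCm38. They were picked because of their counts in these same libraries, so those counts are given as a description and carry no test. Wildtype ICR mice received AAV9, a virus that transduces heart muscle, by subcutaneous injection on postnatal day 6 at 1e+11 viral genomes. Hearts were taken on postnatal day 9, 3 days later. The cassettes were cTnT-GFP (control), cTnT-YAP5SA and cTnT-YAP6SA, each driven by the cardiac troponin T promoter, which limits expression to CMs. In YAP5SA the serines through which the LATS kinases restrain YAP are changed to alanine, and YAP6SA carries in addition a serine to alanine change that blocks binding to TEAD transcription factors. Nuclei were pulled down with an antibody to PCM1, a protein at the CM nuclear envelope, and poly-A RNA was sequenced without keeping strand. Each of the 3 groups had 2 libraries, which the labels number as replicates 1 and 2. The replicate number was taken as the batch. The labels do not say whether a library was made from 1 heart or several, so the spread between libraries may be partly technical.

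Myosin heavy chain is the motor protein of the sarcomere, the contractile unit of muscle, and each gene of the cluster encodes a version used by skeletal muscle at a given stage or in a given fibre type. *Myh3* encodes the embryonic and *Myh8* the perinatal form, *Myh2*, *Myh1* and *Myh4* the adult fast forms of type IIa, IIx and IIb fibres, and *Myh13* the form of extraocular muscle. The working heart uses instead *Myh6* (alpha) and *Myh7* (beta), which lie together at another locus.

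The cluster spanned 293.287 kb, from 67078300 to 67371586 on chromosome 11 of GRCm38, with every member on the plus strand. *Myh3* (ENSMUSG00000020908) ran from 67078300 to 67102291, *Myh2* (ENSMUSG00000033196) from 67171027 to 67197517, and *Myh1* (ENSMUSG00000056328) from 67200052 to 67224575. *Myh4* (ENSMUSG00000057003) followed from 67238029 to 67260446, *Myh8* (ENSMUSG00000055775) from 67277124 to 67308634, and *Myh13* (ENSMUSG00000060180) from 67321658 to 67371586.

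The promoters of the 3 members with the highest counts in YAP5SA OE CMs are shown with that of *Myh4*, which lies between them and was at 0. The windows hold 250 bases before and 50 after each RefSeq gene start (GRCm38.p6). Capitals mark matches, on either strand, to the TATA box (TATAAA), the M-CAT motif that TEAD factors bind (CATTCC) and the MEF2 site.
Myh2 (chr11:67170777-67171076, plus strand): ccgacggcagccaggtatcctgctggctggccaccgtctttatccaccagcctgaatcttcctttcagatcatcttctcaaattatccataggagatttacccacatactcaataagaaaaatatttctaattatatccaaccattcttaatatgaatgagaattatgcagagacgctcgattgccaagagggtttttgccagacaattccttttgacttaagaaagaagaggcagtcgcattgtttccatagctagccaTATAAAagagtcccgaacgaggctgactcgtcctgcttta
Myh1 (chr11:67199852-67200151, plus strand): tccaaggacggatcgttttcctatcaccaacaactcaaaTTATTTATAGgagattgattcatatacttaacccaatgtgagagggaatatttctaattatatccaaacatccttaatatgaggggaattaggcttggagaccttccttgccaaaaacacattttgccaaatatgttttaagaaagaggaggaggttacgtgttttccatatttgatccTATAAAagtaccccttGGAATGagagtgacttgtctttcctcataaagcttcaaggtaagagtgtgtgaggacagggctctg
Myh8 (chr11:67276874-67277173, plus strand): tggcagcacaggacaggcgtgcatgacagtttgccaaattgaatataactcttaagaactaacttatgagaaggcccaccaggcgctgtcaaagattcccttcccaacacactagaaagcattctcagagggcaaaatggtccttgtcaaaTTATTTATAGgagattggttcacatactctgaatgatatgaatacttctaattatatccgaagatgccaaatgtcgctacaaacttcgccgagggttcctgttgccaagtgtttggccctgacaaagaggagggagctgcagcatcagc
Myh4 (chr11:67237562-67237861, plus strand): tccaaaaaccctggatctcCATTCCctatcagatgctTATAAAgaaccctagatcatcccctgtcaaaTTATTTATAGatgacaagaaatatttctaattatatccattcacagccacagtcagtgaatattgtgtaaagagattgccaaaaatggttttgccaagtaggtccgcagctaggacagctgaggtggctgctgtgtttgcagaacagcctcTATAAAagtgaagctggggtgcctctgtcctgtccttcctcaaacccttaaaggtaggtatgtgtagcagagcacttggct
The same MEF2-site match, TTATTTATAG, was present in *Myh1*, *Myh8* and *Myh4*, and 3.19% of 32851 RefSeq promoters of this length held a MEF2-site match. On the minus strand the TATA box letters overlap that match. The M-CAT letters were found in *Myh1* and *Myh4* but not in the windows of *Myh2* or *Myh8*, and 14.7% of promoters held them. The run ttctaattatatcc, of 14 bases, stood in all 4 of these windows and in no other promoter of the table. No member held the MEF3 motif (TCAGGTT, 4.07% of promoters), and an E-box (CANNTG, 72.3% of promoters) was found in the windows of *Myh3*, *Myh4*, *Myh8* and *Myh13*. A CArG box match (1.63% of promoters) stood in *Myh4* and *Myh13*. *Myh4* held every one of these motifs that *Myh1* and *Myh8* held. The RefSeq and GENCODE starts differed (RefSeq minus GENCODE) by 50 bases for *Myh1*, -217 for *Myh4* and 5445 for *Myh13*, so that these windows depend on the annotation used. The 14-base run began at base -160 of *Myh1*, -158 of *Myh4*, -125 of *Myh2* and -54 of *Myh8*. The windows thus do not cover matching stretches, and the TATA box match of *Myh2* began at base 11, after its start. A motif absent from the *Myh2* or *Myh8* window may lie outside it, which was not tested.

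The libraries held 14552847 to 19615627 gene counts. *Yap1* was at 2647 (batch 1) and 1987 (batch 2) counts in GFP, at 2397 and 2147 in YAP6SA, and at 2089 and 1828 in YAP5SA, so that its gene counts do not show the overexpression. The labelled cell type was checked by the summed level of 8 CM markers, which was 29650 to 68500 CPM (counts scaled by the TMM library size) and lowest in the YAP5SA libraries. Markers of other cells were counted as well, with sums of 839.4 to 1735 CPM for fibroblasts and 215 to 308.3 for endothelial cells. The macrophage sum was 48.3 and 65.85 CPM in GFP, 60.78 and 83.79 in YAP6SA, and 70.7 and 113.7 in YAP5SA.

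In YAP5SA OE CMs 4 members were counted well above 3 counts, the most that a count of 0 allows. The adult fast genes *Myh2* and *Myh1*, the perinatal *Myh8* and, at a low level, *Myh13* were present, while the embryonic *Myh3* and the IIb gene *Myh4* were not. *Myh2* had 0 counts in every GFP and YAP6SA library and 347 and 1041 in the YAP5SA libraries of batches 1 and 2. *Myh1* likewise had 0 counts in the other 4 libraries and 127 and 499 in YAP5SA. For both genes the YAP5SA libraries were the only ones with any count. *Myh8* had 1 and 0 counts in GFP, 5 and 6 in YAP6SA, and 536 and 1170 in YAP5SA. The YAP6SA libraries lay a few counts above GFP and far below YAP5SA. *Myh13* had 0 and 0 counts in GFP, 0 and 1 in YAP6SA, and 15 and 18 in YAP5SA.

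The remaining members were silent or nearly so in every library. *Myh4*, the main myosin of the fastest mouse limb fibres, had 0 counts in all 6 libraries, each of which allows up to 3 counts, or 0.153 to 0.206 CPM. *Myh3*, the first of the cluster to be expressed in the embryo, went the other way, with 4 and 5 counts in GFP, 0 and 1 in YAP6SA, and 0 and 1 in YAP5SA. These few counts are within the reach of counting error for any 1 library, and the intervals given below cover counting error only.

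**Figure D1:**
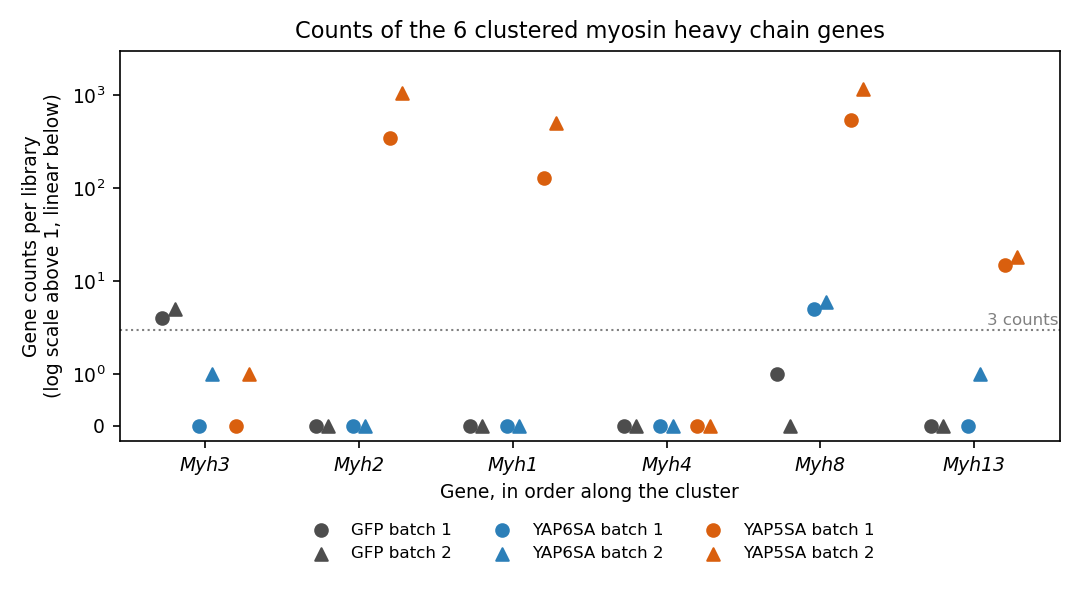
Counts of each member (horizontal axis, in genomic order) in each of the 6 libraries (vertical axis, log scale above 1 and linear below), with batch 1 as circles and batch 2 as triangles. *Myh2*, *Myh1*, *Myh8* and *Myh13* stand at 15 to 1170 counts in YAP5SA, *Myh4* is at 0 throughout, and the dotted line marks 3 counts.

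The level in YAP5SA OE CMs was 40.5 ± 24.9 CPM for *Myh2*, 18.1 ± 13.8 for *Myh1*, 50.4 ± 21.2 for *Myh8* and 0.998 ± 0.010 for *Myh13* (mean ± SD, n = 2). Against GFP, with 3 counts allowed per library at 0, *Myh2* was at least 230-fold higher, *Myh1* at least 102.9-fold higher and *Myh13* at least 5.66-fold higher. The ratio of *Myh8* was 1778, with a 95% counting interval of 318.8 to 70280, because GFP had 1 count. Against YAP6SA, *Myh2* was at least 243.1-fold higher, *Myh1* at least 108.8-fold higher, and *Myh8* 170.2-fold higher (95% counting interval 94.9 to 341.6). The *Myh13* ratio against YAP6SA was 36.2 (6.06 to 1473). For *Myh3* the ratio of YAP5SA to GFP was 0.116 (0.00264 to 0.836).

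Between YAP6SA OE CMs and GFP, *Myh2*, *Myh1* and *Myh4* were at 0 in both groups, and *Myh13* was at or under 3 counts in both. *Myh8* had 11 counts in the 2 YAP6SA libraries together and 1 in GFP, a ratio of 10.4 (95% counting interval 1.52 to 449.7). *Myh3* had 1 and 9, a ratio of 0.106 (0.00241 to 0.762).

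Of the 6 members, *Myh2*, *Myh1* and *Myh8* passed the filter on low counts, which they did through their YAP5SA libraries alone. These 3 were the only members tested. All 3 were called higher in YAP5SA than in GFP at an FDR under 0.05 (edgeR quasi-likelihood test). In that comparison 22% of the 13323 genes tested were called, 12.8% higher and 9.18% lower. Between YAP6SA and GFP no member was called, beside 0.045% of all genes, and between YAP5SA and YAP6SA the same 3 were called higher, beside 14.7% of all genes called in either direction and 9% called higher. The members were chosen on these values, and the counts add nothing to them.

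Set against the cardiac alpha gene, the cluster remained a small part of the myosin message. *Myh6* had 340575 and 429433 counts in GFP, 322883 and 362313 in YAP6SA, and 197629 and 154684 in YAP5SA. For every 1000 *Myh6* counts there were 5.19 and 17.6 cluster counts in the YAP5SA libraries of batches 1 and 2, and 0.0116 to 0.0221 in the other 4. The ratio in batch 2 of YAP5SA was thus raised by both a higher cluster count and a lower *Myh6* count. Since whole nuclear preparations were measured, a few nuclei with much of this RNA and many nuclei with little cannot be told apart, nor fewer cells of a type from less RNA per cell.

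**Figure D2:**
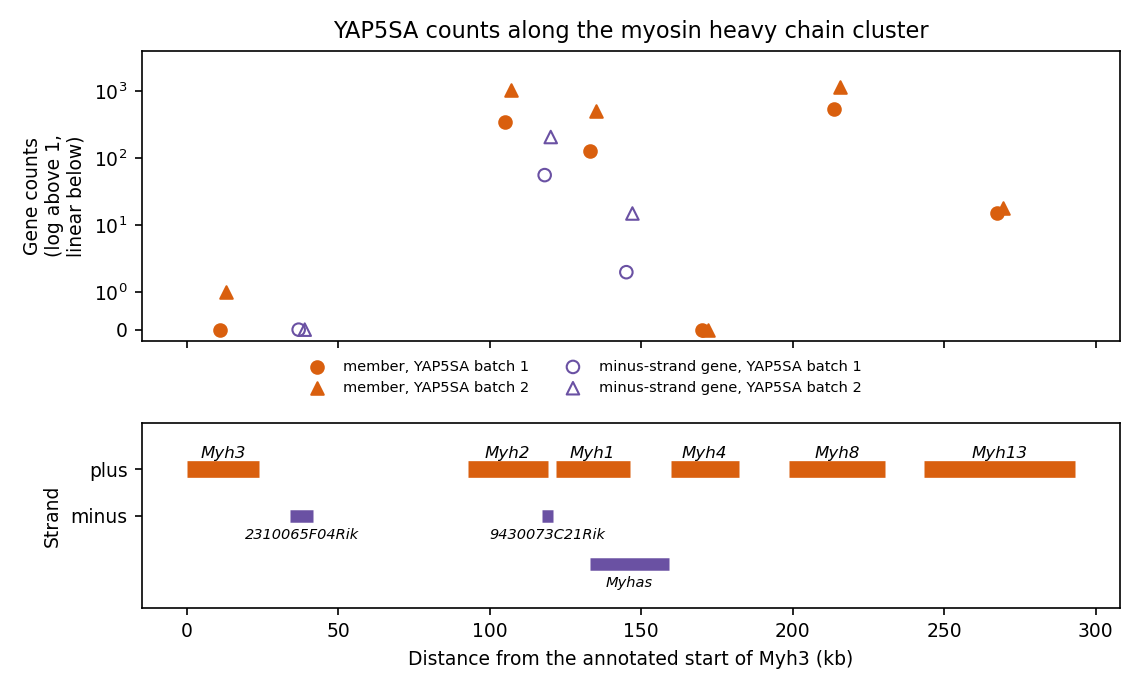
Counts of the members and of the minus-strand genes of the cluster in the 2 YAP5SA libraries (upper panel, log scale above 1 and linear below) over their position in kb from the start of *Myh3* (lower panel, by strand). *Myh4* is at 0 between *Myh1* and *Myh8*, which have 127 to 1170 counts.

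Along the cluster the counts did not follow the order of the genes. *Myh4* was at 0 although it begins 159.729 kb from the start of *Myh3*, between *Myh1* (121.752 kb) and *Myh8* (198.824 kb). *Myh13*, the last member, had 15 and 18 counts, and *Myh3*, the first, 0 and 1. Of the 100-base stretches of *Myh4*, 96.1% matched no other annotated gene. The share was 98.9% for *Myh3*, 90.5% for *Myh2*, 86.0% for *Myh1* and 96.6% for *Myh8*, and the rest matched mostly other members. Reads from stretches shared with other members map to several places, and those shared with an antisense gene on the same bases are ambiguous. Neither kind was counted, so that *Myh1* and *Myh2* are the members whose counts they could lower most. The read length is not given, and for 50-base stretches the share was 69.5% for *Myh1*, 75.4% for *Myh2* and 81.1% for *Myh4*.

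Levels of different genes are compared only per length, and the order then depended on the length used. Per kb of all annotated exons, the YAP5SA level was 5.68 CPM per kb for *Myh2*, 4.28 for *Myh8*, 2.85 for *Myh1* and 0.161 for *Myh13*. Per kb of the longest transcript, *Myh8* came first, at 8.19 CPM per kb, before *Myh2* at 6.66 and *Myh1* at 2.98. The exons of *Myh8* add up to 11772 bases, against 6149 in its longest transcript. The SD of these levels between the 2 libraries was 3.49 for *Myh2*, 1.80 for *Myh8* and 2.17 for *Myh1* per kb of exons, and each pair of these means differed by less than the larger SD of the pair. Within each library *Myh1* lay below *Myh2* and *Myh8* on both lengths, and *Myh13* below all 3. *Myh2* and *Myh8* exchanged places in both libraries with the length used. On the longest transcript, *Myh6* stood at 2134 and 1413 CPM per kb in the same libraries.

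The makeup of the cluster counts differed between the YAP5SA libraries. *Myh8* made up 52.3% of 1025 cluster counts in batch 1 (Wilson 95% interval 49.2% to 55.3%) and 42.9% of 2729 in batch 2 (41.0% to 44.7%). *Myh2* took 33.9% (31.0% to 36.8%) and 38.1% (36.3% to 40.0%). *Myh1* took 12.4% (10.5% to 14.6%) and 18.3% (16.9% to 19.8%). The intervals of the 2 libraries did not overlap for *Myh8* and *Myh1*, and they did for *Myh2*. They cover counting error only, and with 1 library in each batch the batch and the library cannot be told apart.

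**Figure D3:**
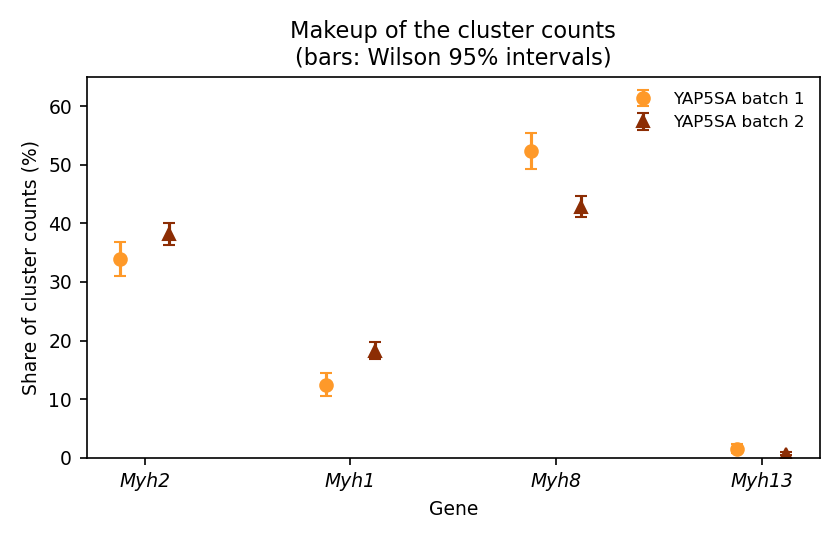
Share of all cluster counts (vertical axis, percent) taken by each member in the YAP5SA libraries of batch 1 (circles) and batch 2 (triangles), with Wilson 95% intervals as bars. *Myh8* stands at 52.3% and 42.9% in batches 1 and 2 and *Myh1* at 12.4% and 18.3%.

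The members were higher in batch 2 than in batch 1 of YAP5SA, except *Myh13*. The ratio of batch 2 to batch 1 on the CPM scale was 2.54 for *Myh2*, 3.32 for *Myh1*, 1.85 for *Myh8* and 1.01 for *Myh13*. The 10 known YAP/TEAD target genes had a median ratio of 1.56 (1.10 to 2.63), and the median over 13254 genes was 1.01. For *Myh6* the ratio was 0.662. The library with more of the targets thus also had more of 3 members, and with 2 libraries no relation could be tested.

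Genes annotated on the opposite strand also had counts within the cluster. 9430073C21Rik, an antisense gene that shares 237 exon bases with the end of *Myh2*, had 0 counts in GFP and YAP6SA and 56 and 207 in YAP5SA, at least 43.3-fold higher than in GFP. It passed the filter through the YAP5SA libraries alone and was called higher there by edgeR's quasi-likelihood test but not by DESeq2. Myhas, antisense to *Myh1* with 515 shared exon bases, had 2 and 15 counts in YAP5SA and 0 elsewhere. The libraries kept no strand, so the counts do not show which strand was transcribed. Reads of either antisense gene and of its myosin partner cannot be told apart where the genes overlap. *Myh2* ends at 67197517 and 9430073C21Rik spans 67195680 to 67199234, so their overlap is not limited to the shared exon bases. 2310065F04Rik, Mir6923 and Gm26476, which also lie between the ends of the cluster, were at 0 in all 6 libraries.

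Within 500 kb of the cluster, 7 of 18 other genes were tested, 1 rose in YAP5SA against GFP (9430073C21Rik) and 2 fell, beside 12.8% of all genes called higher and 9.18% lower. *Pirt* had 2603 and 2438 counts in GFP and 1263 and 1184 in YAP5SA (log2 fold change -0.97, SE 0.19, edgeR quasi-likelihood FDR 0.00636), a call lost without the GFP library of batch 2. *Dhrs7c* had 2145 and 1850 counts in GFP and 788 and 756 in YAP5SA (-1.30, SE 0.18, FDR 0.0013). *Dhrs7c* encodes a reductase of the sarcoplasmic reticulum.

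The other myosin heavy chains did not move as a group. Of 8 genes, 7 were tested, and in YAP5SA against GFP 2 rose and 2 fell, beside a median log2 fold change of -0.47 over the list and 0.00 over all genes (22% of genes called). *Myh9*, the nonmuscle myosin IIA of the cell cortex, rose from 172 ± 1.22 CPM to 407 ± 116 (log2 fold change 1.22, SE 0.18, edgeR quasi-likelihood FDR 0.00199). *Myh11*, the smooth muscle form, rose from 10.1 ± 5.76 to 18.8 ± 3.42 CPM (1.00, SE 0.27, FDR 0.0274). *Myh7b* fell from 1116 ± 265 to 572 ± 172 CPM (-0.94, SE 0.28, FDR 0.0374) and *Myh14*, nonmuscle myosin IIC, from 95.2 ± 23.6 to 53.8 ± 2.24 (-0.80, SE 0.17, FDR 0.0105). *Myh6* and *Myh7*, at log2 fold changes of -1.04 (SE 0.36, FDR 0.0625) and -0.47 (SE 0.20, FDR 0.128), did not pass the threshold. Without the GFP library of batch 2 *Myh9* alone of these was called, and without the YAP5SA library of batch 2 *Myh9* and *Myh14*. The *Myh11* call was also lost without the batch term and the *Myh7b* call with DESeq2. None of the 7 was called in YAP6SA against GFP by edgeR's quasi-likelihood test or DESeq2, and 0 had an unadjusted p under 0.05.

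Myosin light chains, which bind the neck of the heavy chain, were tested for 10 of 12 genes, and 6 rose and none fell in YAP5SA against GFP (median log2 fold change 0.73, beside 12.8% of all genes called higher). The atrial and fetal *Myl4* had 4258 and 3007 counts in GFP and 5289 and 6233 in YAP5SA (log2 fold change 0.74, SE 0.15, edgeR quasi-likelihood FDR 0.00905), and the atrial *Myl7* rose by 0.72 (SE 0.18, FDR 0.0189). The nonmuscle and smooth muscle chains *Myl6*, *Myl9*, *Myl12a* and *Myl12b* rose by 0.83, 1.51, 1.61 and 2.32, with FDRs of 0.00792, 0.00186, 0.000811 and 0.0159. The chains of fast skeletal muscle did not do the same. *Myl1* stood at 8.99 ± 2.77 CPM in GFP and 11.5 ± 6.23 in YAP5SA (log2 fold change 0.26, SE 0.37, FDR 0.653), and *Mylpf* had 12 to 25 counts in every library and was below the filter. *Myl9* rose in YAP6SA as well (1.89, SE 0.22, FDR 0.025). All 10 light chains tested had positive log2 fold changes there, with a median of 0.50. Of them 5 had an unadjusted p under 0.05 (edgeR quasi-likelihood test). *Myl6*, *Myl12a* and *Myl12b* stood at 0.90, 0.70 and 1.37 in YAP6SA against GFP and were not called. Without the GFP library of batch 2, *Myl9* and *Myl12a* were called in YAP5SA, and in YAP6SA 0 light chains were called with the genes of the full fit and 1 with the filter reapplied. The summed level of 7 smooth muscle and pericyte markers was 228.6 and 388 CPM in GFP, 1354 and 1697 in YAP6SA, and 1456 and 1965 in YAP5SA, and *Acta2*, smooth muscle actin, made up most of it and of its rise (206 CPM in GFP, against 1402 in YAP6SA and 1592 in YAP5SA). Of the 7 markers 6 were tested. *Myh11*, *Acta2* and *Cnn1* were called higher and 0 lower in YAP5SA against GFP, and *Acta2* alone was called in YAP6SA. The pericyte markers *Pdgfrb* (62.2, 64.8 and 60.4 CPM) and *Kcnj8* (12.9, 15.9 and 10.8) were not called in either variant. *Myh11* is itself one of the 7, and the part of these cells in the rise of *Myl9* was not tested.

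Genes that fold or regulate myosin were tested for 10 of 10 members of the list, of which 2 rose and 1 fell in YAP5SA against GFP, a share near the 22% of all genes called. The chaperone *Hsp90aa1* rose by 0.75 (SE 0.15, edgeR quasi-likelihood FDR 0.00686) and the light chain kinase gene *Mylk4* by 1.01 (SE 0.15, FDR 0.00213). *Unc45b*, a chaperone dedicated to muscle myosin, fell from 350 ± 48.7 CPM to 211 ± 41.1 (log2 fold change -0.73, SE 0.19, FDR 0.0227). Of the 3 calls, *Mylk4* alone was made without the GFP library of batch 2. *Hsp90aa1* was also lost without the GFP library of batch 1 and *Unc45b* without the YAP5SA library of batch 2. None of the 10 was called in YAP6SA against GFP by edgeR's quasi-likelihood test or DESeq2, and 1 had an unadjusted p under 0.05.

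The list of skeletal sarcomere and fast fibre genes outside the cluster held calls in both directions. Of 30 genes, 21 were tested, and 5 rose and 4 fell in YAP5SA against GFP (median log2 fold change 0.24, beside 12.8% of all genes called higher and 9.18% lower). *Cacna1s*, the voltage sensor of the skeletal T-tubule, had 11 and 23 counts in GFP, 6 and 19 in YAP6SA, and 386 and 1158 in YAP5SA (log2 fold change 5.45, SE 0.30, edgeR quasi-likelihood FDR 1.8e-05). The giant thin filament gene *Neb* had 139 and 121 counts in GFP and 429 and 901 in YAP5SA (2.32, SE 0.25, FDR 0.000441). *Mybph*, a myosin-binding protein, had 0 and 1 counts in GFP, 2 and 2 in YAP6SA, and 43 and 77 in YAP5SA, a ratio to GFP of 125.1 (95% counting interval 22.0 to 4982). *Cacna1s* and *Mybph*, counted among the 5 that rose, passed the filter on low counts through their YAP5SA libraries alone. *Casq1* (1.16, SE 0.25, FDR 0.0107) and *Tpm2* (1.04, SE 0.32, FDR 0.0453) rose less, and both calls were lost without the GFP library of batch 2. The slow troponin *Tnnt1* (-0.96), the glycogen phosphorylase *Pygm* (-1.16), the muscle enolase *Eno3* (-0.95) and the ubiquitin ligase *Trim63* (-0.50) fell, with FDRs of 0.00896, 0.00549, 0.0158 and 0.0462. The *Trim63* call was lost in all but 1 of the 6 fits with a library left out. In all, 4 of the 21 were called without the GFP library of batch 2. For YAP6SA against GFP 0 of 21 were called by edgeR's quasi-likelihood test or DESeq2, and 1 had an unadjusted p under 0.05.

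Several genes of the skeletal fibre were at or near 0, and others were counted in every group. *Tnnc2*, the fast troponin C, and *Myoz3* had 0 counts in all 6 libraries. *Actn3*, the alpha-actinin of fast fibres, had at most 3 counts in any library and 0 in YAP5SA, *Pvalb* at most 2 and 0, and *Ryr1* and *Cacng1* at most 3. The slow isoform gene *Mybpc1* had at most 1. *Mybpc2*, the fast myosin-binding protein C, had 294 to 500 counts in every library, and *Tnnt3*, *Tnni2* and *Atp2a1* had 11 to 63, all named after their values were seen. Of 11 skeletal fibre markers, 5 were at or under 3 counts in every library. Their summed level was 24.4 and 27.2 CPM in GFP, 28.8 and 24.6 in YAP6SA, and 30.0 and 36.8 in YAP5SA, most of it from *Mybpc2*. Of 5 satellite cell markers, *Pax7* was at 0 throughout, and the summed level was 0.472 and 0.390 CPM in GFP, 0.304 and 0.604 in YAP6SA, and 1.06 and 2.90 in YAP5SA. *Cdh15* alone stood at 0.528 and 2.79 CPM in the YAP5SA libraries, and the others had at most 7 counts in any library.

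**Figure D4:**
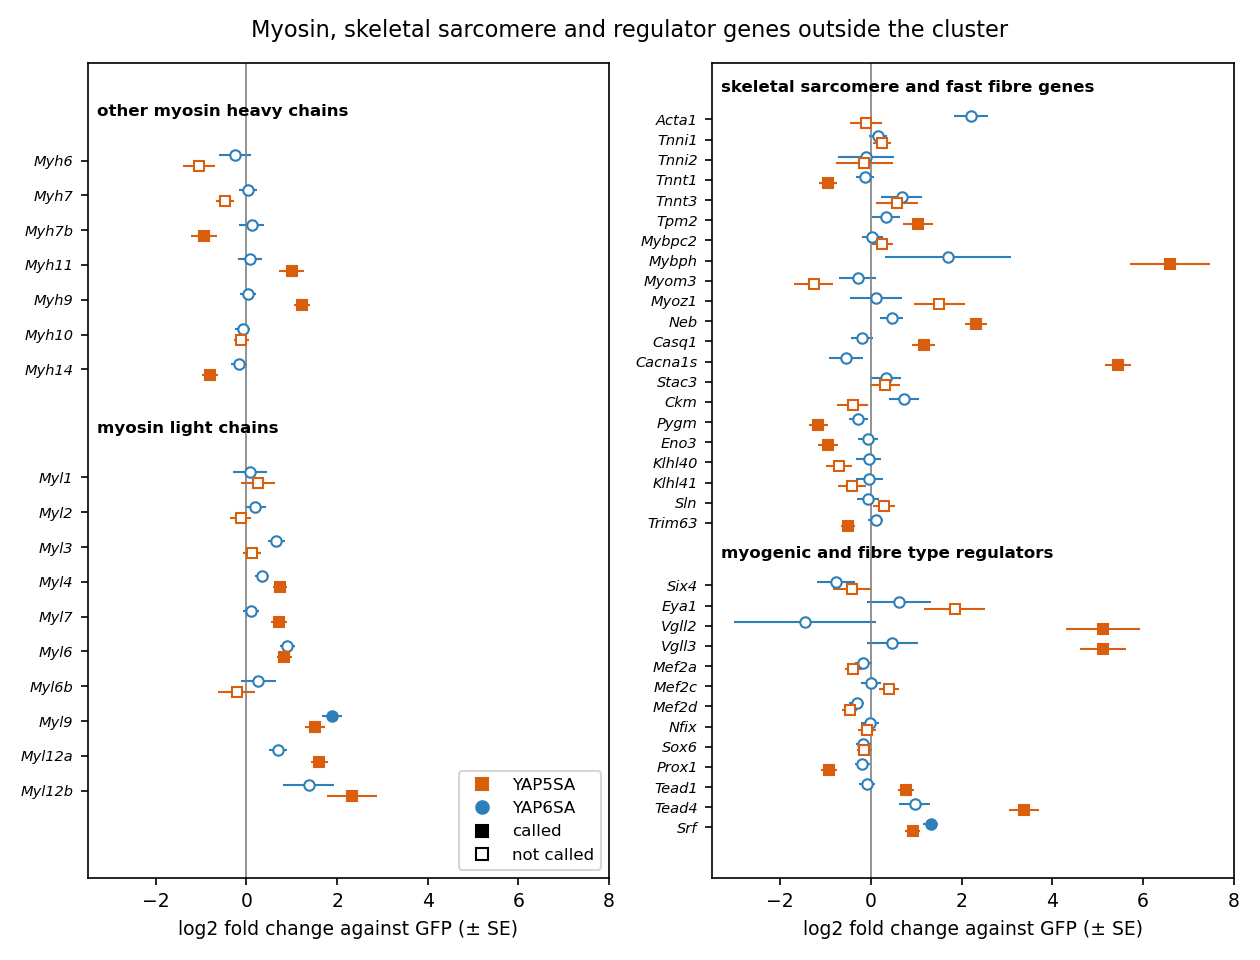
log2 fold change against GFP (horizontal axis, bars are standard errors) of the tested genes of 4 lists in YAP5SA (squares) and YAP6SA (circles), filled where the edgeR quasi-likelihood FDR was under 0.05. In YAP5SA *Cacna1s* (5.45), *Mybph*, *Vgll2* and *Vgll3* stand far to the right, and in YAP6SA *Myl9* and *Srf* alone are filled. The genes named for YAP5SA passed the filter on low counts through their YAP5SA libraries alone.

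Among neuromuscular junction and fusion genes, 2 of 12 were tested and both rose in YAP5SA against GFP, beside 12.8% of all genes called higher. *Ncam1*, a cell adhesion molecule, rose from 14.0 ± 2.47 to 44.7 ± 19.3 CPM (log2 fold change 1.62, SE 0.21, edgeR quasi-likelihood FDR 0.00117), and *Chrnb1*, an acetylcholine receptor subunit, from 21.1 ± 1.37 to 38.3 ± 6.61 (0.87, SE 0.24, FDR 0.0273). The *Chrnb1* call was lost without either GFP library or without the YAP5SA library of batch 2. The other receptor subunits *Chrna1*, *Chrnd*, *Chrng* and *Chrne* had at most 3 counts in any library. *Cdh15*, 3 and 3 counts in GFP, 0 and 0 in YAP6SA, and 8 and 50 in YAP5SA, and *Mymk*, the fusion protein gene, 4 and 7 in YAP5SA and 0 elsewhere, were chosen after their values were seen. So were *Mymx*, the other fusion protein gene, with 5 and 4 counts in YAP6SA and 0 in GFP and YAP5SA, and *Jsrp1*, with 35 and 9 in GFP, 29 and 13 in YAP6SA, and 13 and 6 in YAP5SA.

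Regulators of muscle identity were tested for 13 of 22 genes, and 5 rose and 1 fell in YAP5SA against GFP (median log2 fold change 0.39, beside 12.8% of all genes called higher and 9.18% lower). *Vgll2* and *Vgll3* encode cofactors that bind TEAD proteins. *Vgll3* had 24 and 19 counts in GFP, 42 and 20 in YAP6SA, and 354 and 1297 in YAP5SA (log2 fold change 5.12, SE 0.52, edgeR quasi-likelihood FDR 0.000331). *Vgll2* had 2 and 1, 1 and 0, and 32 and 87 counts in the same order, a ratio of YAP5SA to GFP of 41.3 (95% counting interval 13.8 to 203.4). *Vgll3* and *Vgll2*, counted among the 5 that rose, passed the filter on low counts through their YAP5SA libraries alone. *Tead4* (3.37, SE 0.34, FDR 0.000331), *Tead1* (0.77, SE 0.18, FDR 0.0156) and *Srf* (0.92, SE 0.17, FDR 0.00544) rose too. *Prox1*, a transcription factor of the heart and of slow fibres, fell (-0.92, SE 0.18, FDR 0.00633). The *Tead1* call was lost without the GFP library of batch 2 and the *Srf* call without that of batch 1. In YAP6SA against GFP *Srf* rose (1.31, SE 0.17, FDR 0.0424), a call lost without any 1 of the 4 libraries compared.

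The factors that commit cells to skeletal muscle were mostly absent. *Myod1*, *Myf6*, *Pax3* and *Pax7* had 0 counts in all 6 libraries. *Myf5*, named after its values were seen, had 1 and 0 counts in GFP, 0 and 7 in YAP6SA, and 4 and 1 in YAP5SA. *Myog*, which drives terminal differentiation of myoblasts and was named after its values were seen, had 0 counts in GFP and YAP6SA and 19 and 52 in YAP5SA, at least 11.8-fold higher than in GFP. It did not pass the filter on low counts and was not tested in the main fit. The form of the filter with a prior count let it in through its YAP5SA libraries alone, and it was then called higher in YAP5SA than in GFP.

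Of the 10 YAP/TEAD targets, 8 rose in YAP5SA against GFP and none was called in YAP6SA by edgeR's quasi-likelihood test, where 1 had an unadjusted p under 0.05. Over all genes 12.8% were called higher in YAP5SA, and 0.045% were called in YAP6SA, so that 0 of 10 there is near the background. The median log2 fold change of the list was 2.03 in YAP5SA and 0.21 in YAP6SA. *Ccn2*, a secreted matrix protein gene, rose most in YAP5SA (3.33, SE 0.43, FDR 0.000998). *Amotl2*, an angiomotin family gene, had 2619 and 2095 counts in GFP, 2618 and 3104 in YAP6SA, and 10245 and 25077 in YAP5SA (2.83, SE 0.25, FDR 0.000187). *Ankrd1* had 13802 and 13385, 26051 and 26332, and 51704 and 85888 counts in the same order, with a log2 fold change of 2.35 in YAP5SA (SE 0.21, FDR 0.0002) and of 0.87 in YAP6SA (SE 0.20, FDR 0.328).

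The genes whose pattern over the 6 libraries was most like that of each member were found by Euclidean distance between centred log2 CPM. *Atp6v1c2*, a subunit of the vacuolar proton pump, came first for *Myh2*, *Myh1* and *Myh8*, at distances of 1.95, 1.20 and 1.76. It had 0 counts in GFP, 3 and 0 in YAP6SA, and 187 and 420 in YAP5SA. *Igfbp2* and *Zbtb8b* were also among the first 5 for these 3 members. *Cdk15* was so for *Myh2* and *Myh1*, *Tmem130* for *Myh2*, 9430073C21Rik for *Myh1*, and Gm2694 and *Arhgef16* for *Myh8*. For *Myh13* the first 5 were *Zim1* (distance 0.461), *Adamtsl1*, *Plod2*, *Ect2* and *Morc4*. None of these overlapped with the first 5 of the other members. The log2 CPM hold a prior count of 2, which shrinks the changes of a gene with few counts such as *Myh13*. *Zim1* had 111 and 80 counts in GFP and 583 and 745 in YAP5SA, where *Myh13* had 0 and 0, and 15 and 18. The lack of overlap thus cannot be read as a different pattern. RLE scaling, with the same prior count, gave the same 5 for each member.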

How the data were processed

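Poly-A RNA of PCM1-bound CM nuclei was sequenced in 6 libraries, 2 for each of GFP, YAP6SA and YAP5SA. Per the labels and the study's methods, STAR mapped the reads to mm10 (Ensembl annotation of GRCm38), and the authors deposited raw counts per gene, with no normalization. Read length is not given in the sources used here. The summary rows of unmapped, multiply mapped, ambiguous and out-of-gene reads, 22.0% to 23.4% of the total, were left out. The members and gene lists were chosen with earlier results of these data known.

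The filter asked for a group median above 1 on the log2 CPM scale in any group, which 13323 of 54532 genes met. The model was made with edgeR 4.0.16 under R 4.3.3 (TMM, quasi-likelihood, terms for group and batch, all 6 libraries, Benjamini-Hochberg FDR under 0.05). A form of this filter with a prior count was run first. The plain form was taken afterwards, when its number of genes was seen to match an earlier analysis of these data. Likewise, fits of fewer libraries were first run with the filter reapplied and then with the genes of the full fit, so that 1 choice changes at a time. Both forms of each are reported. Standard errors are the log2 fold change over the root of F. The replicate number in the labels was taken as the batch, which pairs the libraries. Deviations of libraries of 1 batch correlated at 0.368 (GFP and YAP6SA), 0.0985 (GFP and YAP5SA) and 0.175 (YAP6SA and YAP5SA). Alternatives were RLE scaling, no filter, DESeq2 1.42.0, the likelihood ratio test, no batch term, fits of 4 libraries and each library left out. Calls named as lost without a library come from fits with the genes of the full fit.

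Named genes were the members, all genes of the heavy chain, light chain and target lists, the called genes and those at or under 3 counts in the other lists, called or interposed genes within 500 kb, and the 5 nearest patterns per member. A count of 0 allows up to 3. Promoters and gene starts are from RefSeq (GRCm38.p6), and gene names, for 54409 of 54532 identifiers, from GENCODE M21.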

Additional observations from a re-analysis of the deposited data

How the results depend on the processing

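RLE scaling and the filter with a prior count, the latter chosen after seeing the data, changed no count by over 1.5 times. They changed no call among the named genes that were tested in the main fit. With the prior count 14 regulators were tested and 7 called in YAP5SA against GFP, since *Myog* entered and was called higher. None of the 43 calls of named genes against GFP, members and cell type markers aside, changed direction in the alternatives checked. Direction was not checked for uncalled genes, or where a library was left out and the filter reapplied. The 6 genes called in YAP6SA against GFP became 145 without a filter, 54 with DESeq2, 82 with the likelihood ratio test, 276 with only the 4 libraries compared, and 236 when the filter was also reapplied to those 4, a form chosen after seeing the data. Higher genes were all of the 6 but 71.7% of the 276 and 74.1% of the 54. Without the replicate block, which removes the pairing by batch, 0 genes were called there, and 1152 in place of 1956 between YAP5SA and YAP6SA, while the YAP5SA against GFP calls lost were *Myh11*, *Tpm2* and *Trim63* among the named genes. In YAP6SA against GFP the 1 light chain called became 4 without a filter, 2 with DESeq2, 2 with the likelihood ratio test, 4 with the 4 libraries (4 with the filter reapplied) and 0 without the block, and the 1 regulator became 0 without the block. From 0, the folding genes called there became 1 without a filter, 1 with the likelihood ratio test and 1 with the 4 libraries under either form of the filter, and the skeletal sarcomere genes 2, 1 and 2 in that order.

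With each library left out, under either form of the filter, 738 to 4863 genes were called in YAP5SA against GFP (2931 with all), 6 to 216 in YAP6SA against GFP, and 396 to 4160 between YAP5SA and YAP6SA. The lowest of the first came without the GFP library of batch 2 and the highest without the YAP5SA library of batch 1. In YAP5SA against GFP the other heavy chains called ran from 1 to 6, light chains 2 to 6, folding genes 1 to 4, skeletal sarcomere genes 4 to 13, neuromuscular genes 1 to 3, regulators 5 to 10, and genes within 500 kb 2 to 3. In YAP6SA against GFP, light chains ran from 0 to 4, folding genes 0 to 1, skeletal sarcomere genes 0 to 2 and regulators 0 to 1. The causes were not tested. In such fits the lone library of a group is assumed to vary like the other groups. Of 43 calls of named genes, 19 were lost without the GFP library of batch 2. The YAP5SA level of *Myh2* was 22.9 or 58.1 CPM with 1 library left out, that of *Myh1* 8.38 or 27.9, and that of *Myh8* 35.4 or 65.3.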
